A study of Mus musculus with 8 samples.

Results

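The 8 RNA-seq libraries of the series, all from mouse paw, were split into 4 muscle-rich and 4 muscle-poor libraries. The sides were chosen by a fast muscle score, the mean log2 CPM (counts scaled to a common library size, with a prior count of 2) of 10 genes of fast-twitch skeletal muscle: Acta1, Ckm, Myh1, Myh4, Mylpf, Tnnt3, Tnni2, Tnnc2, Atp2a1 and Pvalb. All 8 libraries of the series were used. The muscle-rich side held male replicate 2, female replicate 1, male replicate 3 and female replicate 4, and the muscle-poor side held male replicate 1, female replicate 2, male replicate 4 and female replicate 3. Values are given throughout in this order, from the highest score to the lowest. Each side thus held 2 males and 2 females. Because these measured values chose the sides, differences between the sides are a description, with no test.

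The study compared paws of 4 male and 4 female mice of the inbred strain C57BL/6J. All 8 samples carried the same treatment label, prolactin at 0.1 µg per injection, injected i.pl. once a day for 12 days. The labels' protocol also names arms given PBS or a single injection, which were not analysed here, so no sample without prolactin entered. Neither the age of the mice, nor which layers of the paw were taken, nor whether each sample came from its own mouse is stated in the labels. If some did not, the p-values below measure only the spread between these samples.

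Skeletal muscle fibres contract through sarcomeres, repeating units in which myosin heavy chains pull on actin filaments after calcium leaves the sarcoplasmic reticulum. Fast fibres use their own set of myosins, troponins and calcium handling proteins, and the creatine kinase made from Ckm buffers their ATP. The paw holds small intrinsic muscles and tendons under a thick plantar skin, whose keratinocytes mature from a basal layer through suprabasal layers to a cornified surface. Nerves wrapped in Schwann cell myelin and blood vessels run through the deeper tissue. In bulk tissue, fewer cells of a type and less RNA per cell cannot be told apart.

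The sequences just upstream of the 4 marker genes are shown because their products chose the sides together. Each is the 250 bases before the start of the gene, 5′ to 3′ on the gene's strand, from RefSeq on GRCm38.p6. Capitals mark matches on either strand to CANNTG, the E-box bound by myogenic bHLH factors such as MyoD, and to CATTCC, the MCAT element bound by TEAD factors.
Acta1, skeletal muscle alpha-actin, chr8:123894776-123895025, minus strand: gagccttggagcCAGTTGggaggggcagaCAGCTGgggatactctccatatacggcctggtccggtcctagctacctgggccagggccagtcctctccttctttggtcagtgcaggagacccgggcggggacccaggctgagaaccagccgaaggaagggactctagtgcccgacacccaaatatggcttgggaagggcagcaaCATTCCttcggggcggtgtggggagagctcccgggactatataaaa
Ckm, muscle creatine kinase, chr7:19410844-19411093, plus strand: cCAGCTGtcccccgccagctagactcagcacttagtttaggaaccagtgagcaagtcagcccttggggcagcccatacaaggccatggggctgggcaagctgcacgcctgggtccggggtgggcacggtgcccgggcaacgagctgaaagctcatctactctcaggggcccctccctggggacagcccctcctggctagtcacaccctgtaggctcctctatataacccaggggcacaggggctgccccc
Mylpf, fast myosin regulatory light chain, chr7:127211358-127211607, plus strand: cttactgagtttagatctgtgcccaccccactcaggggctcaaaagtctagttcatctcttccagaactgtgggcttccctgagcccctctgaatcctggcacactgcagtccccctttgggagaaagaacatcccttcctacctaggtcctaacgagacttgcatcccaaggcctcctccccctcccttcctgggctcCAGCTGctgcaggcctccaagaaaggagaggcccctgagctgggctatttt
Atp2a1, the fast calcium pump SERCA1, chr7:126463074-126463323, minus strand: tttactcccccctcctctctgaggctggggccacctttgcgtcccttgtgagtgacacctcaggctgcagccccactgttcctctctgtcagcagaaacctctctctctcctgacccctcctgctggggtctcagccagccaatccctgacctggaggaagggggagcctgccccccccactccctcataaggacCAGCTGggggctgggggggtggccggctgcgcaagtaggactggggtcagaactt

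Of the 10 score genes, 8 had an entry in the RefSeq table, and 7 of these 8 held CANNTG, which was also found in 66.2% of all 32851 windows of this length. The narrower form CAGCTG, which lies inside CANNTG and was chosen after the sequences were seen, occurred in 5 of the 8, including all 4 markers, and in 13% of all windows. CATTCC occurred in 3 of the 8 and in 12.6% of all windows. The MEF2 pattern, CTA followed after any 4 bases by TAG, occurred in 0 of the 8 and in 3.2% of all windows. A match is a description of the letters in these windows and says nothing about binding in the paw.

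Library size and the share of reads in no gene did not separate the sides. Counts in genes ran from 16753528 to 24993744 per library, and both extremes lay on the muscle-rich side. Of the reads with a unique position, 18 to 21.1% fell in no gene. Alignments that were not unique were 45.2 to 48.7% of all lines of the counter's output together, so genes with near-identical copies are undercounted. Within each sex this share was lower on the muscle-rich side. It was 46.07 and 47.57% against 48.3 and 48.68% in males, and 45.22 and 46.32% against 46.85 and 46.54% in females. Genes with a count numbered 17034 to 17295 on the muscle-rich side and 16934 to 17012 on the muscle-poor side. Female replicate 3 stood apart, with a first principal component value of -84.2 against -37.1 to 59.8 in the other 7 libraries, on an axis that held 59.2% of the variance.

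The score fell over a continuous range and showed no single gap between the sides. It was 11.14, 10.73, 9.03 and 8.67 in the muscle-rich libraries and 8.17, 7.88, 5.88 and 1.09 in the muscle-poor libraries. Just inside the split lay female replicate 4 (8.67) and just outside it male replicate 1 (8.17), 0.50 apart. Larger gaps lay within the sides: 1.70 between female replicate 1 and male replicate 3, 2.01 between female replicate 2 and male replicate 4, and 4.78 between male replicate 4 and female replicate 3. The 2 names therefore mark positions along a range, and female replicate 3 alone was nearly free of fast muscle transcripts.

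Acta1, the actin of the skeletal muscle thin filament, stood at 4280, 2650, 902 and 899 CPM in the muscle-rich libraries and at 814, 474, 149 and 3.97 CPM in the muscle-poor libraries. Ckm stood at 2500, 1970, 576 and 498 CPM against 366, 254, 82.2 and 1.5 CPM. Atp2a1, which pumps calcium back into the sarcoplasmic reticulum, stood at 4810, 4340, 1240 and 1050 CPM against 751, 548, 143 and 2.69 CPM. The 3 genes fell in the same order of libraries, by more than 10-fold from the first library to male replicate 4 and much further to female replicate 3. Mylpf, at 1790, 1380, 413 and 430 CPM against 378, 218, 76.8 and 7.99 CPM, kept the highest level of the 10 genes in female replicate 3. Pvalb, the calcium buffer of fast fibres, had 0.441 CPM there and 49.9 to 1550 CPM in the other 7 libraries.

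The difference between the sides, taken as the median log2 CPM of the 4 muscle-rich libraries minus that of the 4 muscle-poor libraries, ran from 2.54 (Acta1) to 6.77 (Myh4) over the 10 genes. In 9 of the 10 the sides did not overlap; over all 14790 tested genes 12.8% were higher without overlap and 9.2% lower. The rule used this contrast, so nothing is read from that count. The shares over all tested genes, 12.8% higher and 9.2% lower, also stand against the count of each list below. Without female replicate 3 the median over the 10 genes was 1.93 instead of 2.71.

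**Figure D1:**
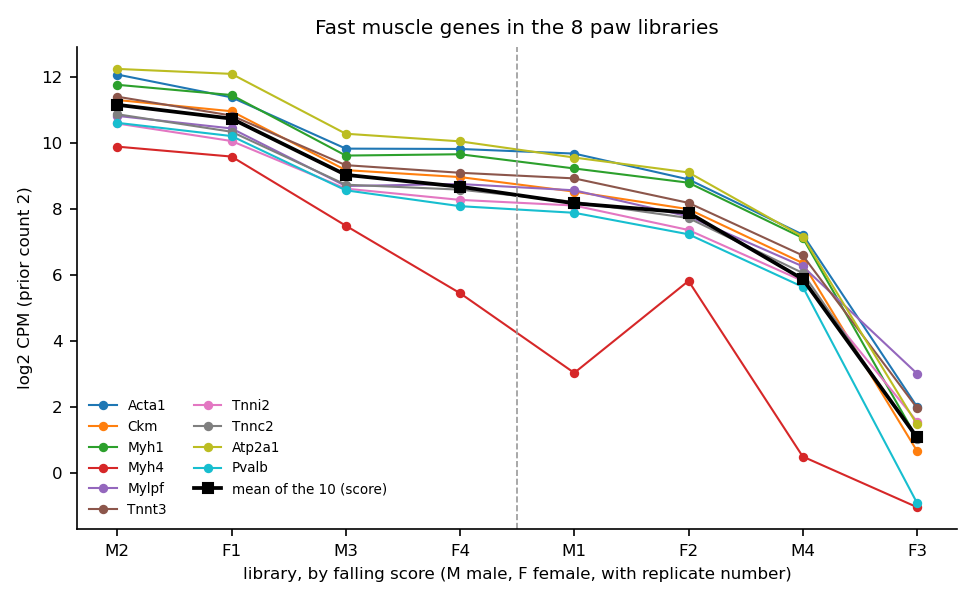
Log2 CPM of the 10 score genes and their mean in each library, ordered by falling score, with a dashed line between the sides. The mean falls from 11.14 in male replicate 2 to 1.09 in female replicate 3; Myh4 leaves the common course, with a lower value in male replicate 1 than in female replicate 2.

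Males and females were spread over the whole range of the score. Its mean was 1.46 lower in females, among them female replicate 3 with the lowest score (1.09). In edgeR's quasi-likelihood test of female against male, the 10 genes had log2 fold changes of -0.61 to -0.22 with standard errors (SE) of 1.34 to 2.08. Their smallest unadjusted p was 0.696 and the Benjamini-Hochberg adjusted p was 0.999 for each of the 10. The SEs were several times the fold changes, so a sex difference of moderate size in muscle transcripts was not detectable in these samples.

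Muscle transcripts took a small part of each library. The 162 genes of the 9 muscle lists held 6.79, 5.47, 1.96 and 1.92% of the counts in genes on the muscle-rich side and 1.58, 1.12, 0.677 and 0.443% on the muscle-poor side. The exact 95% intervals of these shares (Clopper-Pearson, counting error only) spanned 6.78 to 6.80% in male replicate 2 and 0.440 to 0.445% in female replicate 3. The 10 score genes alone held 2.42% in male replicate 2 and 0.00277% in female replicate 3. Of the 0.443% in female replicate 3, the energy enzyme list, with its glycolytic genes used by most cells, held 0.211%.

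Other sarcomere genes followed the score. Of 34 further sarcomere genes 24 were higher without overlap and none lower, with a median difference of 2.73 against 0.01 over all tested genes. Titin (Ttn), the spring that spans the sarcomere, stood at 2700, 2290, 536 and 616 CPM against 487, 356, 86.6 and 1.99 CPM. Nebulin (Neb), which lines the thin filament, stood at 3020, 2070, 528 and 669 CPM against 508, 287, 70.9 and 2.38 CPM. Both were slightly higher in female replicate 4 than in male replicate 3, the reverse of their order by score, and lower in every muscle-poor library. Actn3, the alpha-actinin of fast fibres, differed by 3.31, Mylk2, a skeletal muscle myosin light chain kinase gene, by 3.41, Nrap by 3.18 and Myom2, an M-band gene, by 3.44.

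Genes that couple excitation to contraction moved with the sarcomere. Of 18 such genes 13 were higher without overlap (median 2.56). The calcium release channel gene Ryr1 stood at 826, 648, 168 and 157 CPM against 136, 74.1, 26.7 and 5.91 CPM. Cacna1s, the voltage sensor of the T-tubule, stood at 298, 239, 61.6 and 58.5 CPM against 48.5, 30.7, 7.93 and 0.177 CPM. Female replicate 3 thus kept some Ryr1 while Cacna1s was close to 0. The chloride channel gene Clcn1 (3.01) and the calsequestrin gene Casq1 (2.78) also stood higher on the muscle-rich side without overlap.

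Energy enzymes of muscle followed the same course. Of 24 genes 18 were higher without overlap (median 2.10). Myoglobin (Mb), which stores oxygen in fibres, stood at 2810, 2030, 740 and 575 CPM against 559, 269, 90 and 6.27 CPM. The muscle phosphoglycerate mutase gene Pgam2 differed by 3.02, the AMP deaminase gene Ampd1 by 3.08 and Ckmt2, a mitochondrial creatine kinase gene, by 2.97. Gpi1, a glycolytic enzyme gene used by most cells, stood at 221, 237, 193 and 210 CPM against 206, 177, 240 and 200 CPM. Its sides overlapped.

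The fibre type mix was not the same in all libraries. Of 14 slow fibre genes 5 were higher without overlap (median 2.64). Myh7, the slow myosin heavy chain, stood at 72, 280, 57.8 and 53.4 CPM against 42, 23.4, 2.25 and 0.0883 CPM. Female replicate 1 had several times the Myh7 of male replicate 2 although its fast muscle score was lower. To compare the myosins with each other, counts were divided by exon length (GENCODE M21 on GRCm38) and expressed as shares of the 4 adult genes Myh4, Myh1, Myh2 and Myh7. The length model differs from the annotation the authors counted with, so the shares compare libraries better than genes.

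Myh1, the IIx myosin, was the largest share in all 8 libraries (57.5 to 75.8%). Myh4, the IIb myosin of the fastest fibres, took 16.6, 18.5, 15 and 3.95% of the 4 genes on the muscle-rich side and 0.889, 10, 0.763 and 12.1% on the muscle-poor side. Its share therefore overlapped between the sides and did not follow the score within the muscle-poor libraries. Male replicate 1 and female replicate 2 lay 0.28 apart in score but differed in the Myh4 share of Myh4 and Myh1 counts, at 1.35% (95% interval 1.15 to 1.57) and 11.4% (10.8 to 12). These intervals cover counting error only, and each value is that of a single library. In female replicate 3 that share, 16.7%, rests on 9 Myh4 counts and has an interval of 7.92 to 29.3%. Myh2, the IIa myosin, took 13.1 to 34.2% with its highest share in male replicate 1.

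**Figure D2:**
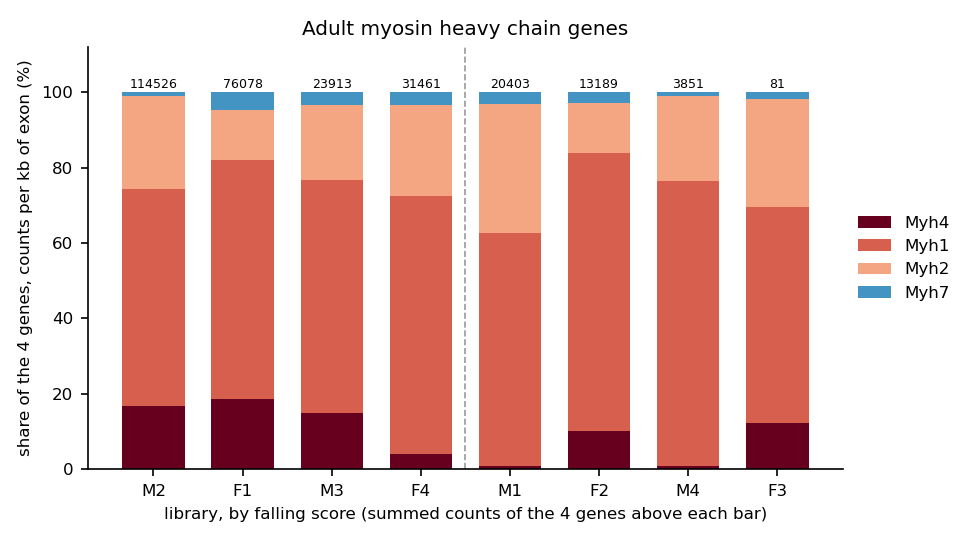
Stacked shares of the adult myosin heavy chain genes Myh4, Myh1, Myh2 and Myh7 in each library, as counts per kb of exon, with the summed counts of the 4 genes above each bar. Myh4 is at 15 to 18.5% in the first 3 libraries and under 1% in male replicates 1 and 4, while female replicate 3 rests on 81 counts.

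Transcripts of regenerating or developing muscle were low. The embryonic and perinatal myosin genes Myh3 and Myh8 differed by 2.70 and 2.72, but their sides overlapped. Myh3 stood at 13.9, 47.9, 6.33 and 19.2 CPM against 6.72, 8.08, 0.833 and 0.177 CPM, highest in female replicate 1 and next highest in female replicate 4. Of 18 tested myogenic factor and satellite cell genes 8 were higher without overlap (median 2.19, or 1.37 without female replicate 3). Myf6, the regulator kept on in mature fibres, stood at 59.5, 33.1, 11.3 and 9.87 CPM against 9.6, 5.87, 1.96 and 0.0441 CPM. Pax7, the marker of satellite cells, stood at 2.03, 2.71, 1.64 and 1.93 CPM against 1.49, 3.6, 0.882 and 2.6 CPM. Pax7 thus overlapped fully and was present in female replicate 3 (59 counts), where Myod1 and Myog had 0 CPM.

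The neuromuscular junction list had 9 of 13 tested genes higher without overlap (median 1.97). The acetylcholine receptor subunit gene Chrna1 stood at 71.4, 56.1, 20.8 and 15.8 CPM against 14.6, 9.28, 2.79 and 0.486 CPM. The adult epsilon subunit gene Chrne differed by 2.54, Chrnd by 2.75 and Colq, which anchors acetylcholinesterase, by 2.56. The fetal subunit gene Chrng had at most 35 counts in any library and was not tested. With a median of 0.52, 4 of 16 atrophy and denervation genes were higher without overlap (25%, against 12.8% of all tested genes). Among them was the ubiquitin ligase gene Trim63 (2.76). Fbxo32, the other ligase gene of that pair, overlapped at 103, 97.9, 65 and 53.3 CPM against 60.1, 56.4, 49.1 and 46.6 CPM.

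Cardiac genes were low in all libraries. Nppa had 0 counts in every library. Myh6, the alpha cardiac myosin, ran from 0 CPM in female replicate 3 to 6.15 CPM in male replicate 2. Of 10 tested cardiac genes 4 were higher without overlap (40%, against 12.8% of all tested genes, median 1.26). Of these Myl4 reached 41.3 CPM in female replicate 1.

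Rpl3 and Eef1a1, housekeeping genes with a muscle form each, gave ratios within a library. Rpl3l replaces the ribosomal protein Rpl3 in muscle, and per kb of exon its ratio to Rpl3 was 5.47, 5.01, 1.24 and 1.25 against 0.844, 0.447, 0.149 and 0.00496. Eef1a2, the elongation factor form of muscle and neurons, had a ratio to Eef1a1 of 0.210 in male replicate 2 and 0.000118 in female replicate 3. These ratios do not depend on the scaling between libraries. They compare libraries and not the genes of a pair, since the length model is not the one the authors counted with and genes with near copies are undercounted.

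Beyond muscle, the sides differed in other tissue layers. Over the 14633 tested genes outside the muscle lists 1798 were higher and 1360 lower without overlap. The differences were unequal in size: 445 of the 1798 but 13 of the 1360 reached a log2 difference of 1. These counts are not free of muscle, since muscle genes that no list held, such as Alpk3, Asb11, Tmem182 and Eef1a2, are among them. The median over all tested genes was 0.01 on the TMM scale, -0.003 with the muscle genes left out of the library, and 0.21 when libraries were scaled to the ribosomal protein genes. On that last scale 4053 genes were higher and 148 lower without overlap, so each group below is given with its median on both scales where its direction matters.

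**Figure D3:**
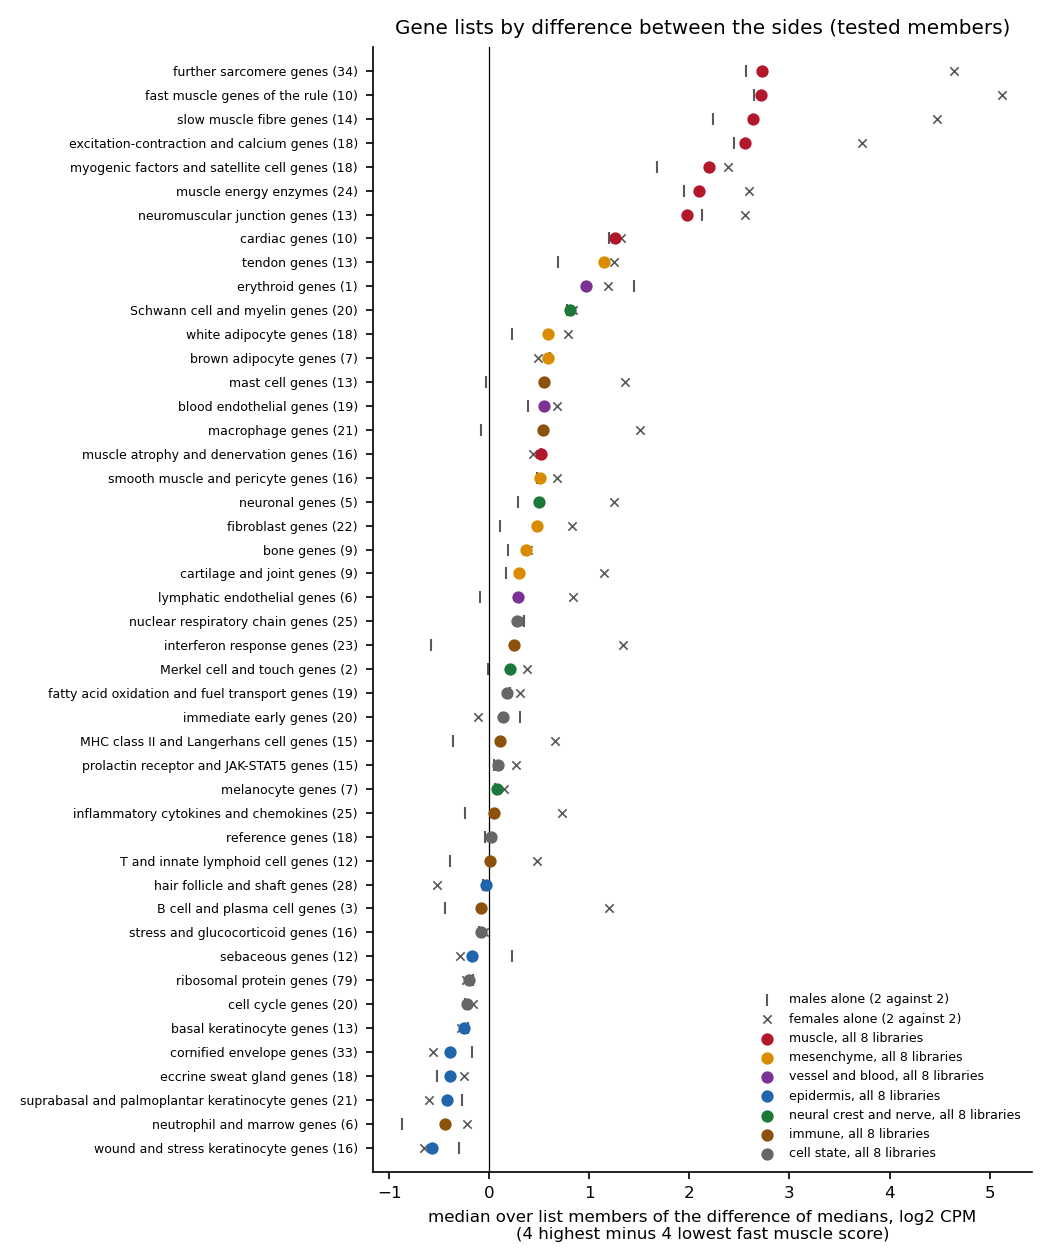
Median difference between the sides (log2 CPM, muscle-rich minus muscle-poor) for each of the 46 gene lists, with the number of tested genes, as a filled point for all 8 libraries and as a bar and a cross for males and females alone. Muscle lists lie at the top with medians of up to 2.73, except the atrophy and denervation list (0.52). Schwann cell genes lie at 0.81 (0.78 in males, 0.84 in females), and epidermal lists below 0.

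Schwann cell and myelin genes differed between the sides as a step. Of 20 tested genes 14 were higher without overlap and 1 lower (median 0.81, or 1.03 on the ribosomal protein scale). Pmp22, a compact myelin protein of peripheral nerve, stood at 286, 280, 273 and 317 CPM against 162, 160, 155 and 155 CPM. Prx, periaxin of the myelin sheath, stood at 65.9, 61.4, 62.7 and 58.2 CPM against 21.3, 31.5, 21.1 and 24.2 CPM. Within the muscle-rich side these genes were nearly level, while Acta1 ran there from 899 to 4280 CPM. Female replicate 3, with almost no fast muscle transcript, had as much of them as the other muscle-poor libraries.

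Mbp, the myelin basic protein gene, showed the same step, at 201, 195, 185 and 179 CPM against 80.9, 117, 86 and 105 CPM. Sox10, the transcription factor that marks the whole lineage, did not: it stood at 16.8, 19.1, 22.7 and 21.7 CPM against 18.9, 12.8, 25.4 and 17.6 CPM. Erbb3, the neuregulin receptor of the lineage, was the member that was lower, and on the ribosomal protein scale no member was. Scn7a, a sodium channel gene of non-myelinating Schwann cells, differed by 0.68 without overlap. The median over the list was 0.78 in males and 0.84 in females, and 0.81 without female replicate 3. Of the 16 neuronal genes 5 could be tested. Of these 1 was higher without overlap (20%, against 12.8% of all tested genes), with a median of 0.50. Stmn2, a growth-associated gene of neurons, stood at 11.5, 16.7, 15.1 and 20.9 CPM against 11.1, 11.3, 10.4 and 12.3 CPM, and Tubb3, a neuronal tubulin gene, at 39.7, 23.4, 52.3 and 24.6 CPM against 44.2, 40.7, 49.2 and 27.9 CPM. Both overlapped. The neurofilament gene Nefl had at most 2 counts and the sodium channel gene Scn10a at most 1 count in any library.

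Blood vessel genes were higher by less. Of 19 blood endothelial genes 12 were higher without overlap and all 19 differences were above 0 (median 0.55, or 0.76 on the ribosomal protein scale). Pecam1, an adhesion protein of endothelium, stood at 148, 128, 111 and 167 CPM against 89.1, 92.5, 96.2 and 99.9 CPM. Cdh5, the cadherin of endothelial junctions, stood at 85.7, 67.5, 56.2 and 75.2 CPM against 43.9, 35.4, 42 and 39.7 CPM. Both genes were higher in every muscle-rich library, but for Pecam1 the sides came close, at 99.9 and 111 CPM. Female replicate 3 again lay near the other muscle-poor libraries. Eng (0.62), Esam (0.59) and Robo4 (0.67) did not overlap either.

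Smooth muscle and pericyte genes had 8 of 16 higher without overlap (50%, against 12.8% of all tested genes, median 0.51). The pericyte gene Rgs5 stood at 91.6, 99.6, 73.7 and 97.8 CPM against 50.3, 18.2, 51.1 and 46.5 CPM. Tagln, an actin-binding protein of smooth muscle, stood at 192, 154, 166 and 219 CPM against 81.6, 84.2, 116 and 153 CPM. Synpo2 and Abcc9, which skeletal muscle also expresses, differed more (2.05 and 1.89) and followed the fast muscle score more closely. The smooth muscle actin gene Acta2 overlapped, since female replicate 3 (232 CPM) equalled male replicate 2 (232 CPM).

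Red cell transcripts could be read only in part. Hba-a1 and Hbb-b1 had 0 counts in every library. The beta-globin symbol Beta-s had 1658, 2590, 1049 and 1318 counts against 535, 72, 95 and 532 counts, and did not overlap between the sides. Alas2, the heme synthesis gene of red cell precursors, differed by 0.96. Beta-s was chosen after its values were seen, and reads shared with its near copies are missing from it.

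Connective tissue genes were mixed. Of 13 tendon genes 3 were higher without overlap (23.1%, against 12.8% of all tested genes), with a median of 1.15. Cilp2 had the largest difference among genes outside the muscle lists with no overlap and a mean of at least 2 CPM (4.32), at 43.5, 39.1, 1.31 and 10.2 CPM against 1.04, 1.29, 0.784 and 0.132 CPM. The tendon marker genes Scx (11.9, 9.49, 2.56 and 4.05 CPM against 3.13, 3.46, 1.27 and 2.03 CPM) and Fmod (589, 605, 127 and 229 CPM against 161, 126, 108 and 87.8 CPM) overlapped between the sides. Male replicate 2 and female replicate 1, the libraries of highest score, were also those of highest Cilp2, Scx and Fmod. Male replicate 3 lay within the muscle-poor range for Scx and Fmod and just above it for Cilp2.

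Of 22 fibroblast genes 4 were higher without overlap (18.2%, against 12.8% of all tested genes). The list median was 0.48, with 0.11 in males and 0.82 in females. Decorin (Dcn), a small matrix proteoglycan, stood at 3170, 2900, 2390 and 2940 CPM against 2250, 1460, 1920 and 1570 CPM. Col1a1 overlapped, at 1620, 1350, 2230 and 2380 CPM against 2000, 1190, 1550 and 894 CPM. Its highest values were in male replicate 3 and female replicate 4, the muscle-rich libraries with less muscle. Cartilage transcripts were scarce: Col2a1 had at most 19 counts in any library, and 9 of 16 cartilage and joint genes could be tested, of which Col9a1 (3.37) and Col11a2 (1.33) did not overlap. Spp1 was the 1 of 9 tested bone genes that was higher without overlap (1.45), or 11.1%, under the 12.8% of all tested genes.

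White adipocyte genes went with single libraries more than with the sides. The median of 18 genes was 0.59, but it was -0.04 without male replicate 1 and 1.05 without male replicate 4. Adipoq, the adipocyte hormone adiponectin, stood at 32.4, 19.4, 17.9 and 41.7 CPM against 7.96, 8.68, 42.2 and 30.1 CPM. Male replicate 4, among the poorest in muscle, thus had as much Adipoq as female replicate 4. Car3, a carbonic anhydrase gene of both fat and slow muscle, was 1 of 2 members without overlap (1.96). These 2 were 11.1% of the list, under the 12.8% of all tested genes. Ucp1, the brown fat uncoupler, had at most 18 counts in any library.

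Epidermal genes were lower on the muscle-rich side, by small amounts. Of 21 suprabasal and palmoplantar keratinocyte genes 12 were lower without overlap, 0 higher, and all 21 differences were below 0 (median -0.42). On the ribosomal protein scale the median was -0.20 and 4 of the 21 were lower without overlap. Over all tested genes 9.2% were lower without overlap on the TMM scale and 1% on the ribosomal protein scale. The same shares apply to the epidermal lists below. With the muscle genes left out of the library it was -0.43 and 12 of the 21 were lower. Krt1, the main keratin of the suprabasal layers with Krt10, stood at 8970, 7440, 10700 and 6230 CPM against 13600, 11000, 13100 and 11800 CPM. Dsg1a, a desmosomal cadherin of the same layers, stood at 2360, 2160, 2580 and 2080 CPM against 3030, 3360, 3230 and 3790 CPM.

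The list held 9.16, 8.1, 10.9 and 8.39% of all counts in genes on the muscle-rich side and 12.3, 11.7, 12.5 and 12% on the muscle-poor side. Dsc1 (-0.57) and Perp (-0.51) were lower without overlap. Krt9, the keratin of palm and sole, overlapped, at 269, 1470, 574 and 1140 CPM against 1690, 3040, 1370 and 2410 CPM. Among males Krt9 was lower in both muscle-rich libraries than in both muscle-poor libraries, and the same held among females.

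Of 13 basal keratinocyte genes 6 were lower without overlap and 1 higher (median -0.25, or -0.09 on the ribosomal protein scale, where none of the 13 was lower without overlap). Krt14, the basal keratin, stood at 1750, 1790, 2350 and 1730 CPM against 2580, 2500, 2440 and 2460 CPM. Trp63, the p63 transcription factor of basal cells, stood at 195, 223, 217 and 189 CPM against 244, 360, 275 and 293 CPM. Dst, which also has muscle and nerve forms, was the member that was higher (0.57). Of 33 cornified envelope genes 11 were lower without overlap (median -0.39, or -0.17 with 1 of 33 on the ribosomal protein scale), among them the protease gene Asprv1 (-0.43) and Lce1g (-0.42). Lor, which encodes loricrin, overlapped (-0.13).

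Among genes without overlap and with a mean of at least 2 CPM, the largest differences in this direction lay in keratins of stressed or thickened epidermis. Krt6b stood at 0.909, 28.8, 31.4 and 37.3 CPM against 144, 126, 86.1 and 138 CPM. Krt16 stood at 14, 23.9, 56.9 and 31.7 CPM against 110, 59.5, 93.2 and 89.4 CPM. Both were lowest in male replicate 2, where Krt6b had 17 counts, and neither overlapped. Krt6a, a near copy of Krt6b, overlapped at 53.6, 79.7, 132 and 91.2 CPM against 147, 121, 119 and 186 CPM, and reads that fit both genes are missing from each. S100a8, an alarmin of stressed keratinocytes and neutrophils, stood at 5.4, 6.83, 7.47 and 11.1 CPM against 32.7, 12, 19.4 and 14.3 CPM. The wound and stress list had 5 of 16 lower without overlap (median -0.58, or -0.35 with 3 of 16 on the ribosomal protein scale).

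**Figure D4:**
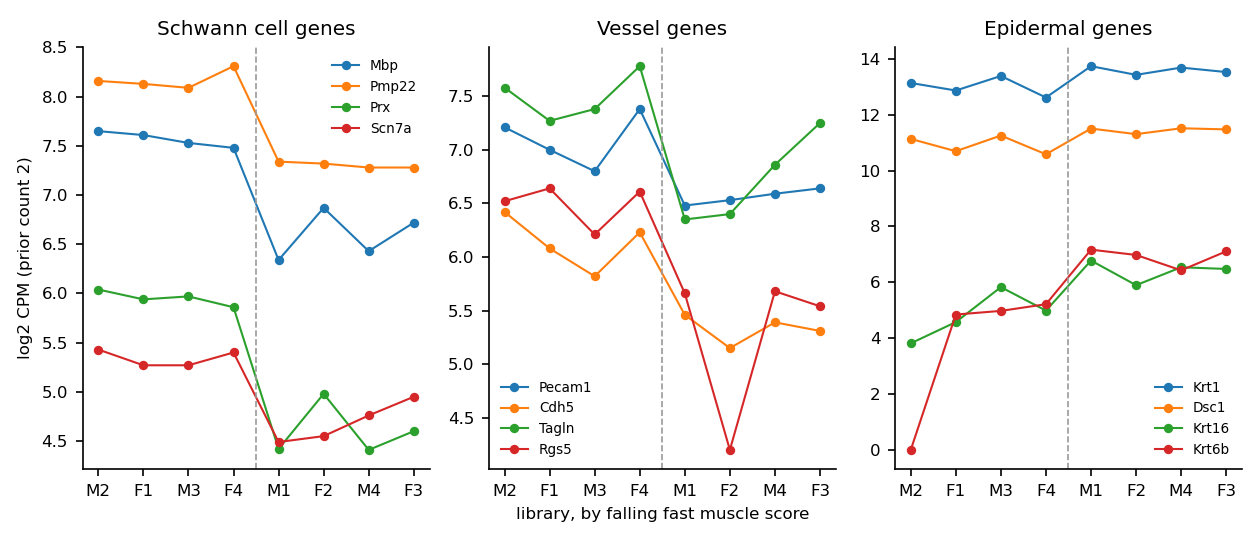
Log2 CPM of Schwann cell genes, vessel genes and epidermal genes in each library, ordered by falling fast muscle score, with a dashed line between the sides. Prx holds at 58.2 to 65.9 CPM in the muscle-rich libraries and at 21.1 to 31.5 CPM in the others, while Krt6b and Krt16 lie lower in the muscle-rich libraries.

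Among skin appendage genes, the hair follicle and sebaceous lists differed little at the median. None of the calls of lower genes named here for hair follicle, sweat gland and sebaceous genes was kept on the ribosomal protein scale. Of 28 hair follicle genes 1, Foxn1 (-0.65), was lower without overlap, and the list median of -0.03 changed sign on the ribosomal protein scale (0.13). Of 18 sweat gland genes 2 were lower without overlap (11.1%, near the 9.2% of all tested genes), the water channel gene Aqp5 (-0.45) and Slc9a3r1 (-0.28). Of the 18 differences, however, 17 were below 0, with a list median of -0.39 (-0.22 on the ribosomal protein scale). The cornified envelope list had the same median, -0.39. Gsdmc, from the sebaceous list, differed by -1.20, while that list's median of -0.18 also changed sign (0.06). Melanocyte genes had a median of 0.08 with 3 of 7 higher (42.9%, against 12.8% of all tested genes). Tyr had at most 16 counts in any library.

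Immune genes did not form a common pattern. Of 21 macrophage genes 6 were higher without overlap (28.6%, against 12.8% of all tested genes), with a median of 0.54. It was 0.24 without female replicate 2 or 3 and 0.94 without male replicate 1 or 4. The median was -0.08 in males and 1.5 in females, a difference between the sexes that was not tested. Mrc1, a scavenger receptor of resident macrophages, stood at 155, 159, 160 and 233 CPM against 146, 76.5, 133 and 81.5 CPM. The low values were those of female replicates 2 and 3, and the muscle-poor males lay near the muscle-rich libraries. Mast cell genes had 1 of 13 higher (7.69%, under that share of all genes), Gata2 (0.82), which other cells also express. T cell genes had 0 of 12 in either direction, and the MHC class II and Langerhans cell list had Epcam (-0.29) lower, 1 of 15 (6.67%, against 9.2% of all tested genes) and 0 of 15 on the ribosomal protein scale.

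Interferon response genes marked 1 library on each side. Their mean log2 CPM was 3.14, 3.55, 3.84 and 5.0 against 3.30, 3.59, 4.90 and 2.37. Irf7, the interferon amplifier, stood at 16.8, 32.1, 24.8 and 68.3 CPM against 18.8, 28.7, 77.2 and 9.62 CPM. Female replicate 4 and male replicate 4 were thus high together across the split, and none of 23 genes was free of overlap.

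Among genes of the injected hormone's pathway, 4 of 15 were higher (26.7%) and 1 lower (6.67%) without overlap (median 0.09). Over all tested genes the shares were 12.8% and 9.2%. Prlr, the prolactin receptor, stood at 28.4, 28.8, 30.1 and 27.3 CPM against 31.3, 44.9, 33.7 and 52.5 CPM. Stat5b, a transcription factor downstream of it, stood at 137, 114, 72.5 and 70.3 CPM against 63.6, 57.6, 64.4 and 43.8 CPM. Esr1, the estrogen receptor, stood at 6.74, 4.77, 3.6 and 5.01 CPM against 2.99, 2.03, 1.71 and 1.68 CPM, with a difference of 1.34. Prlr was highest in female replicates 3 and 2, and Stat5b in the libraries of highest muscle score. The feedback genes Socs2 (0.02) and Cish (-0.53) overlapped, and Stat5a (-0.09) did as well. On the ribosomal protein scale the median was 0.32 and no member was lower without overlap.

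Metabolic and general cell genes moved less. Of 25 nuclear genes of the respiratory chain 6 were higher without overlap (24%, against 12.8% of all tested genes, median 0.28), such as Sdhb (0.65). The mitochondrial ADP carrier gene Slc25a4, the form of heart and muscle, stood at 928, 679, 333 and 293 CPM against 245, 187, 149 and 94.7 CPM. Of 79 ribosomal protein genes 20 were lower (25.3%, against 9.2% of all tested genes) and 1, Rpl3l, higher (median -0.20). Of 18 reference genes 4 were lower (22.2%, against the same 9.2%) and 1 higher (median 0.02). Actb stood at 908 to 1190 CPM over all 8 libraries. Of 20 cell cycle genes 2 were lower (10%, near the 9.2% of all tested genes) and 0 on the ribosomal protein scale, with medians of -0.22 and -0.056. Of 20 immediate early genes 3 were higher without overlap (15%, near the 12.8% of all tested genes). Their list median was 0.13, and 8 of the 20 differences were below 0. Nr4a1, 1 of these 3, differed by 1.22, at 69.5, 45.2, 54.9 and 35.4 CPM against 19.3, 26.9, 16.8 and 23.7 CPM.

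The study's own comparison of the sexes, which the rule did not use, was also fitted with the muscle side as a term. With sex as the sole term, edgeR called 14 of 14790 genes (0.0947%) at an adjusted p under 0.05, 6 higher in females (0.0406%) and 8 in males (0.0541%). With the muscle side added as a term it called 39 (0.264%), 23 higher in females (0.156%) and 16 in males (0.108%), and these included all 14. At an unadjusted p under 0.05 the numbers were 966 and 1541. The SE of the sex difference fell to a median of 0.884 of its former value over all genes. The 25 added genes kept their sign, their log2 fold changes moved by at most 0.08, and the SE of each became smaller. The smaller SEs were close to fixed. These genes were picked for passing only with the side, and the SEs were derived from the test statistic. None of the 25 was free of overlap between the sides, which is close to fixed for genes called by sex, as each side held both sexes. DESeq2 with sex as the sole term called 57 genes higher in females and 55 in males, including 21 of the 25. The side was chosen from expression in these same libraries. Whether it accounts for the added calls was not tested.

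Pglyrp4, a peptidoglycan recognition protein of epithelia, is an example of an added call. In males it stood at 25.7 and 26 CPM in the muscle-rich libraries and at 37.7 and 35.7 CPM in the muscle-poor libraries. In females it stood at 52.1 and 45.7 CPM against 75.4 and 76.3 CPM. Each sex was thus divided by side in the same direction, while every female lay above every male. Its log2 fold change of female over male was 1.0 (SE 0.21, edgeR adjusted p = 0.262) without the side and 0.98 (SE 0.07, edgeR adjusted p = 0.000844) with it. Hhip, a hedgehog-binding protein gene, had 2.83 and 3.22 CPM against 8.21 and 6.61 CPM in males, and 8.78 and 11 CPM against 33.7 and 22.9 CPM in females. Its log2 fold change was 1.87 (SE 0.52, edgeR adjusted p = 0.556) without the side and 1.83 (SE 0.17, edgeR adjusted p = 0.00504) with it.

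Other added genes were the cytosolic phospholipase gene Pla2g4e, higher in males (-0.81, SE 0.09, edgeR adjusted p = 0.0117), and the X-linked demethylase gene Kdm5c, higher in females (0.48, SE 0.05, edgeR adjusted p = 0.0143). Cd207, which encodes langerin of Langerhans cells, was called higher in females (0.86, SE 0.11, edgeR adjusted p = 0.0271). So was the clock gene Per1 (0.68, SE 0.09, edgeR adjusted p = 0.0243). The added calls depended on having all 8 libraries: Hhip and Pglyrp4 were the 2 of 25 that stayed called whichever library was left out. Without female replicate 3, 5 of the 25 remained called. With the continuous score as a covariate in place of the side, 2 of the 25 were called (18 genes in all, 7 higher in females and 11 in males).

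**Figure D5:**
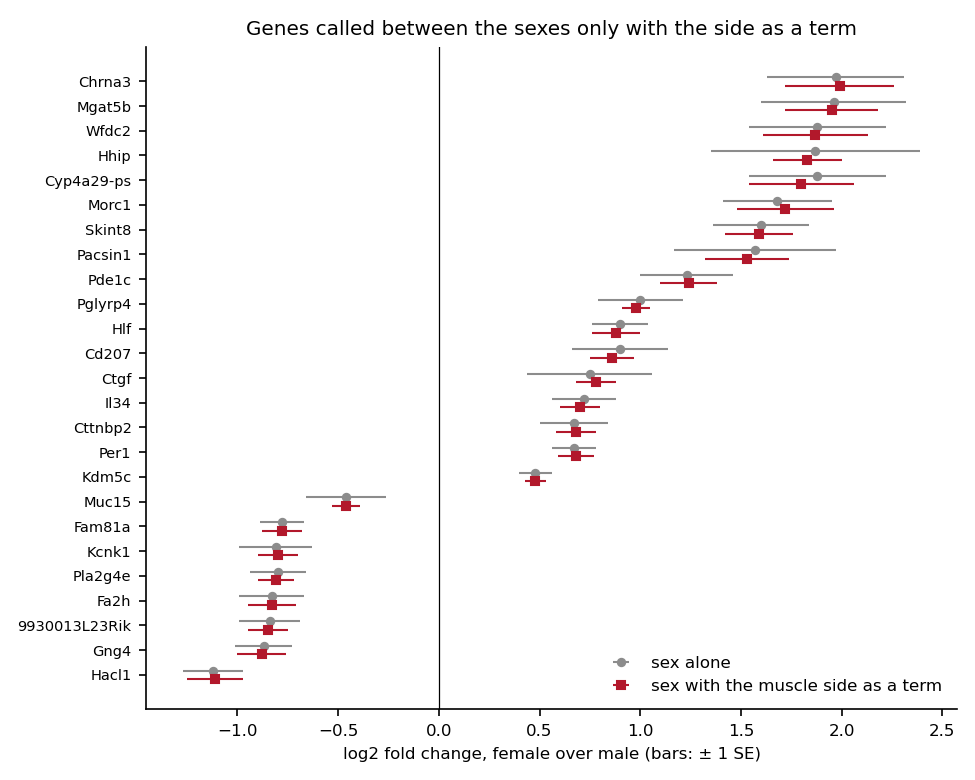
Log2 fold change of female over male (± 1 SE, edgeR) for the 25 genes called only with the muscle side as a term, from the fit with sex alone (grey circles) and with the side added (red squares). The estimates move by at most 0.08 and the bars shorten for each gene, which picking genes called only with the side makes close to fixed.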

How the data were processed

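RNA from paw was sequenced in 8 libraries. Per the labels' protocols, libraries were made with a stranded poly(A) kit from about 500 ng of total RNA and read as single ends of 50 bp. The submitters' processing notes name bcl2fastq, TopHat2, HTSeq and the build mm9; for tool versions, gene models and strand handling, nothing is given in the sources used here. For each library, whole-number read counts of 22609 gene symbols were deposited by the authors, with no normalization; the counter's 5 summary lines were left out.

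Counts were filtered with filterByExpr (14790 genes tested), scaled by TMM and turned into log2 CPM with a prior count of 2 in edgeR 4.0.16 (R 4.3.3). CPM are on the TMM scale. Sex was tested by the quasi-likelihood F test (robust) with Benjamini-Hochberg adjustment over all tested genes at 0.05, and checked on simulated data; SEs were derived from the test statistic. Alternatives were DESeq2 1.42.0, other scalings and filters, the replicate number as a block, the muscle side or score in the fit, and each library left out in turn. Low counts pull differences of log2 CPM towards 0. A gene counts as higher or lower without overlap if all 4 libraries of one side exceed all 4 of the other.

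The libraries, lists and genes were chosen with earlier results of these data known. Named were the 10 score genes, up to 4 members of each list with the largest difference among those without overlap and with a mean of at least 2 CPM (if none, the 2 of highest mean), and up to 12 such genes per direction outside the muscle lists. Further members of the lists and the genes added by the fit with the muscle side were chosen after their values were seen. Lists share some members. Each library was counted as its own sample. Chi-square statistics between libraries of a sex were far above sampling noise, but they cannot show whether any libraries shared a mouse. Builds differ, so no coordinates are given beyond those of the RefSeq windows. Some genes that these rules name are not reported here.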

Additional observations from a re-analysis of the deposited data

Results flagged for a closer look

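Within each sex, 114 sets of 4 values (list scores, the score genes and library size) were searched for a library far from the other 3, a rule that chance alone meets in about 1 of 20 sets. A single one met it. The mean log2 CPM of the ribosomal protein genes was 4.72 in male replicate 2 and 4.90 to 4.92 in the other males. Male replicate 2 was also the library with the highest fast muscle score, and the part of muscle content in this value was not tested.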

How the results depend on the processing

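The 8 libraries kept their sides with the score taken from further sarcomere genes or from excitation-contraction genes, and with 3 other scales. They also did with the 4 markers, but these are themselves score genes, so that result was close to fixed. The scale to ribosomal protein genes moved the most: 4053 genes were higher and 148 lower without overlap, and the list medians became 0.76 for smooth muscle and pericyte, 0.57 for bone, 0.76 for blood endothelial, -0.085 for basal keratinocyte, -0.20 for suprabasal, 0.25 for melanocyte, 1.03 for Schwann cell, 0.72 for neuronal, 0.49 for respiratory chain, 0.33 for immediate early, 0.13 for stress and glucocorticoid, 0.32 for prolactin pathway, 0.22 for reference and 0.010 for ribosomal protein genes. This follows from that scale's shift of all genes by 0.21 at the median. Of the 155 named genes Rplp0 changed sign, to 0.00015. The share of counts in the score genes alone was 2.42% in male replicate 2 and 0.00277% in female replicate 3. With 1 library fewer, 1930 to 2567 genes were higher and 1617 to 2124 lower without overlap, the most lower ones without male replicate 3; fewer libraries overlap less by construction. List medians then ran from 1.37 to 2.77 for myogenic, -0.038 to 1.05 for white adipocyte, 0.12 to 1.05 for brown adipocyte, -0.36 to -0.21 for basal keratinocyte, -0.22 to 0.35 for melanocyte, 0.42 to 0.83 for neuronal, 0.021 to 0.33 for immediate early, -0.17 to -0.060 for stress, 0.0059 to 0.15 for prolactin pathway and -0.029 to 0.033 for reference genes. The lowest median was 1.70 for excitation-contraction, 1.17 for neuromuscular junction, 0.34 for atrophy, 0.72 for tendon and 0.13 for respiratory chain genes, all 5 without male replicate 2, and all but atrophy also moved by over 1.5 times without female replicate 1. It was 1.69 for slow fibre genes without female replicate 3 or male replicate 4, 1.28 for neuromuscular junction genes without either of these, and 0.31 to 0.32 for fibroblast genes without female replicate 2, 3 or 4. Cell cycle genes ran from -0.35 (without female replicate 4) to -0.064 (without female replicate 1), with -0.079 without male replicate 2. For these the cause was not tested.

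Sex calls were 6 higher in females and 8 in males. With the muscle side as a term they were 23 and 16, with DESeq2 57 and 55, which included 21 of the 25 genes the side added. With the replicate number as a block they were 2 and 5. Deviations of same-numbered libraries from the mean of their sex correlated at -0.31 to -0.09. Same-numbered libraries also lay far apart in fast muscle score, so these values cannot show whether the numbers pair the samples. With 1 library fewer, 2 to 7 and 6 to 10 were called, and fewest in females (2) without male replicate 3 or 4, and 3 without male replicate 1. With the side as a term and 1 library fewer, a choice made after seeing the data, 8 to 20 and 7 to 18 were called. Of the 39 calls 30 remained without female replicate 4 and 15 to 19 without any other library.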

Other observations

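Outside the muscle lists, the genes with the largest differences towards the muscle-rich side included several known from striated muscle. Asb11, a ubiquitin ligase adaptor gene, stood at 18, 11, 5.67 and 3.09 CPM against 2.94, 1.52, 0.196 and 0.0441 CPM. The kinase gene Alpk3 stood at 83.7, 67.7, 21 and 16.5 CPM against 16.4, 7.58, 1.47 and 0.265 CPM, and Tmem182, a muscle membrane protein gene, at 57.1, 47, 12.8 and 11.3 CPM against 9.5, 5.59, 1.32 and 0.132 CPM. All 3 followed the order of the fast muscle score. Sbk2 (3.05), Lrrc38 (3.21), Arpp21 (3.21) and Agbl1 (3.32) differed by similar amounts, as did 2310010M20Rik (3.23) and 2310042D19Rik (3.02).

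Other genes were lower on the muscle-rich side. Stfa3, a stefin protease inhibitor gene of the wound and stress list, stood at 51.7, 72.4, 70.2 and 59.2 CPM against 108, 124, 92.5 and 218 CPM. BC100530, another stefin-like gene, stood at 43.8, 65.6, 86.2 and 92.5 CPM against 151, 152, 148 and 163 CPM. The stefins have near copies, so their counts are uncertain. Akr1d1, a steroid reductase gene, stood at 25.8, 21.2, 40.3 and 31.4 CPM against 60, 67.9, 47.3 and 41 CPM. Pla2g4d, a phospholipase gene of epidermis, differed by -0.90, Serpinb3d by -0.98, and the urate oxidase gene Uox, at 0.802 to 2.12 CPM against 2.15 to 3.83 CPM, by -1.26.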
